A study of Rattus norvegicus with 66 samples.

Results

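The endocannabinoid genes examined here are 9 of the 37777 gene entries that were counted in dorsal hippocampus of Long Evans rat pups on postnatal day (PND) 6. They were chosen by name: Dagla and Daglb, Mgll, Abhd6 and Abhd12, Napepld and Faah, Cnr1, and Pnpla6. Each name belonged to 1 entry of the gene table, and levels are given as CPM, counts per 1000000 counts of all libraries of a pup. Transcript lengths were not used, so that CPM of different genes are not comparable, while those of 1 gene in different pups are.

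Endocannabinoids are lipid messengers that neurons make on demand and that travel backwards across the synapse. The diacylglycerol lipases DAGLα and DAGLβ (Dagla, Daglb) make 2-arachidonoylglycerol (2-AG). Monoacylglycerol lipase (Mgll) breaks down most of it in adult brain, with smaller parts taken by ABHD6 and ABHD12. Anandamide and related N-acylethanolamines can be formed by NAPE-PLD (Napepld) and are cleaved by fatty acid amide hydrolase (Faah). The CB1 receptor (Cnr1) on axon terminals lowers transmitter release, and in hippocampus it is most abundant on cholecystokinin-containing interneurons. Neuropathy target esterase (Pnpla6) cleaves lysophospholipids and is known for its inhibition by neurotoxic organophosphates. The lipases of the list, apart from NAPE-PLD, a metal-dependent phosphodiesterase, are serine hydrolases. Chlorpyrifos is an organophosphate whose active form, the oxon, binds the catalytic serine of such enzymes. The main question was therefore whether chlorpyrifos given to the dams moved the mRNA levels of these genes in their pups. RNA levels say nothing of enzyme activity, which was not measured.

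The study comprised 64 pups (41 males and 23 females) in 13 groups. Aroclor, a commercial mixture of polychlorinated biphenyls, and bisphenol A were fed to the dams in chow from before mating through pregnancy and lactation, at 0.5 mg/kg (Aro0.5, BPA0.5) or 5 mg/kg (Aro5, BPA5). Chlorpyrifos was injected subcutaneously into the dams during pregnancy and lactation, at 1 mg/kg (CPF1) or 3 mg/kg (CPF3). Feeding controls (CONF) were 4 males and 5 females, and injection controls (CONSC) 5 males and 5 females; the labels give the injected vehicle as saline and the methods as dimethyl sulfoxide. Low doses were studied in males only, with 4 pups each in Aro0.5, BPA0.5 and CPF1. The high-dose groups held 6 Aro5, 7 BPA5 and 7 CPF3 males, and 5 Aro5, 4 BPA5 and 4 CPF3 females. As in the study, CONF and CONSC pups of a sex served together as its controls. All pups were of 1 strain and age, and the dissected piece held some neocortex beside the hippocampus.

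Libraries held 10644138 to 86206550 counts (median 20740650). Those of all males carried counts of the Y-linked genes Kdm5d (323 to 1384) and Eif2s3y (885 to 2946) and those of all females had 0. Library titles were written in different ways. In males the closing letter was a capital (form A) or a small letter (form B), in control females the group name was set apart from the pup's code (form A) or was not (form B), and for the 13 treated females the form could not be read. What the forms stand for is not stated, nor whether those of males and of females correspond. Of male libraries, 9 control and 12 low-dose libraries were of form A, whereas all 20 high-dose libraries and 1 control library were of form B, so that high-dose treatment and title form cannot be told apart in males. Male pup CONF N2-2y and female pup CONF N4-3x were sequenced in both forms, and their counts were summed. Marker genes of hippocampal neurons were present in all groups except Fibcd1, a CA1 marker, which had at most 3 counts in any pup. Summed CPM of 6 striatal markers ranged from 122 to 713 in control males and from 171 to 1425 in control females, and those of 6 neocortical markers from 278 to 627 and from 272 to 797. Marker levels thus differed several-fold between pups of a group. In bulk tissue, fewer cells of a type and less RNA per cell cannot be told apart.

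Faah could not be assessed. It is listed at 0 counts in all 66 libraries. A second entry, LOC100911581, which carries the symbol Faah in the current RefSeq gene table, had 0 to 3 counts. No level, fold change or ratio with Napepld is therefore given, and these values do not show whether the gene was expressed. The other 8 genes were counted in every library. Dagla had 613 to 13033 counts, Daglb 187 to 2107, Mgll 966 to 10857, Abhd6 411 to 3007, Abhd12 943 to 9238, Napepld 60 to 692, Cnr1 1332 to 12458 and Pnpla6 442 to 5989. All 8 passed the filter on low counts in every comparison.

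**Figure D1:**
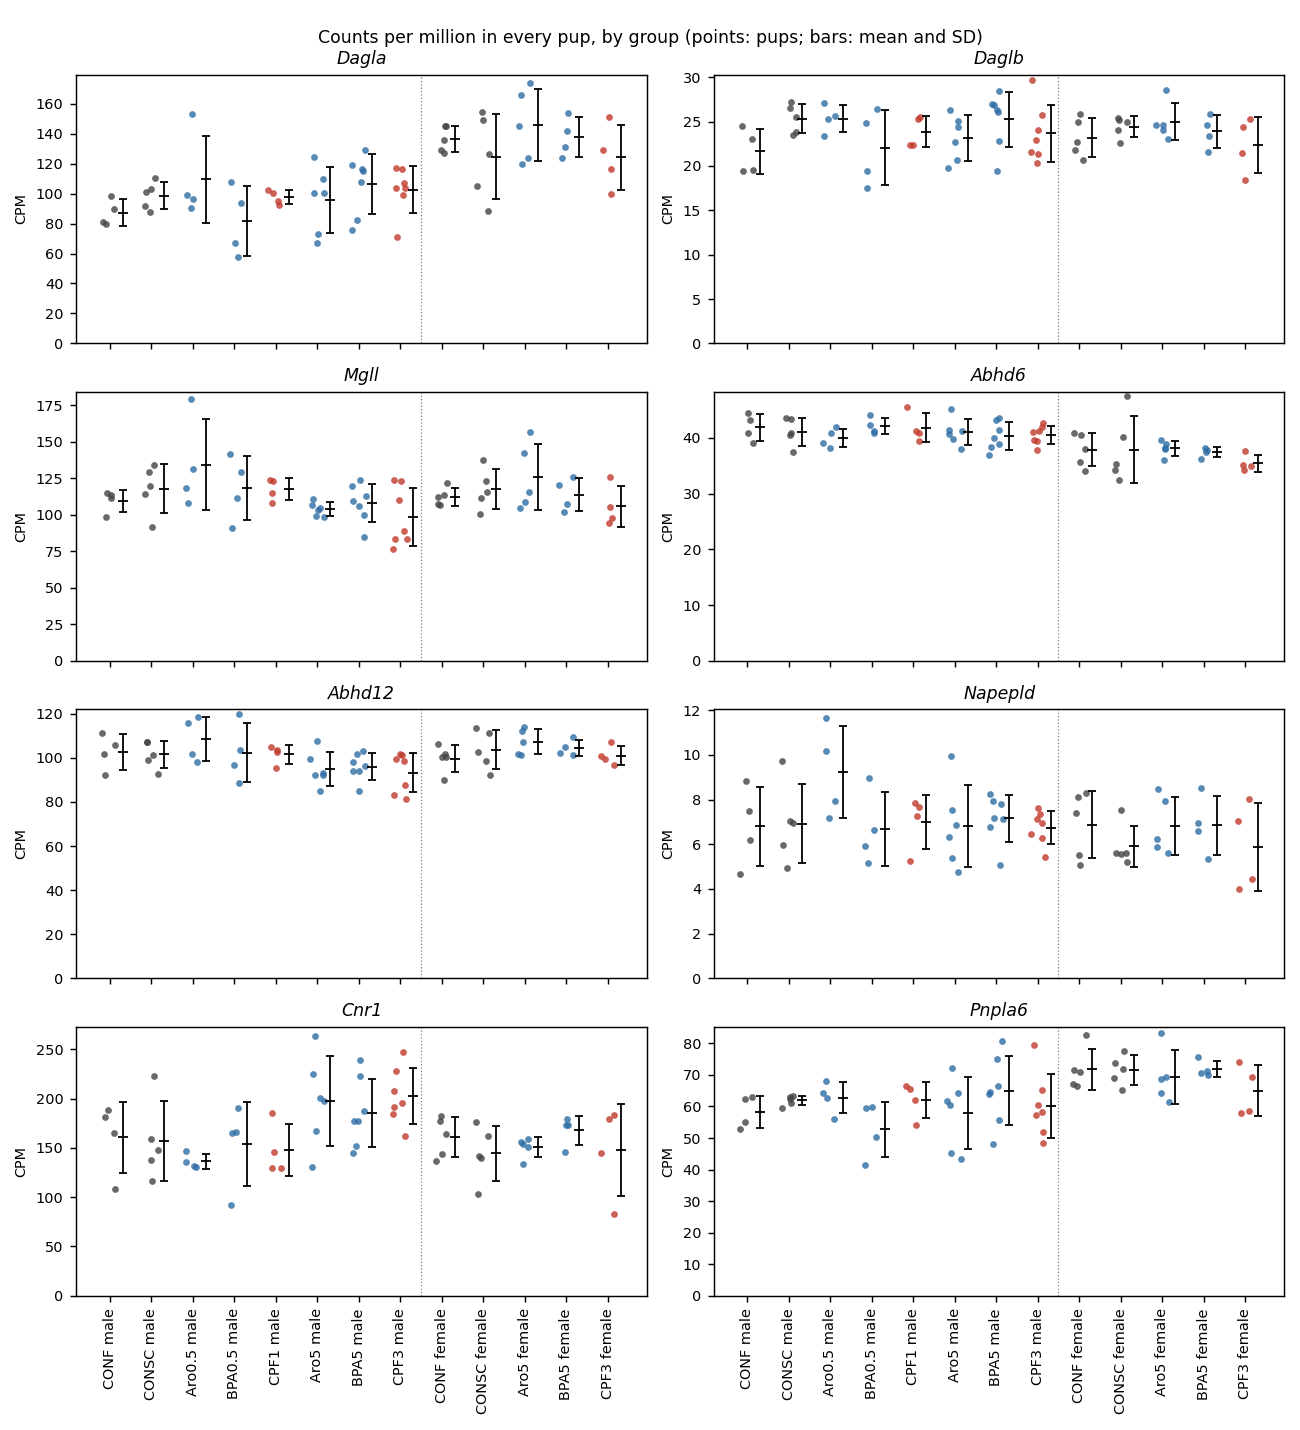
CPM of each gene (vertical axes from 0) in every pup of the 13 groups, males left and females right of the dotted line, with mean and SD beside the points; controls are grey, chlorpyrifos groups red and the others blue. Cnr1 was highest on average in the 3 high-dose male groups, and Dagla and Pnpla6 were higher in control females than in control males.

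Across the 13 groups, mean levels of most genes lay close together. The mean of the highest group divided by that of the lowest was 1.16 for Abhd12, 1.17 for Daglb, 1.19 for Abhd6, 1.36 for Mgll and Pnpla6, 1.49 for Cnr1, 1.57 for Napepld and 1.78 for Dagla. Cnr1 was highest in CPF3 males (202 ± 28.3 CPM; SD, n = 7), followed by Aro5 males (198 ± 45.9, n = 6) and BPA5 males (186 ± 34.7, n = 7). It was lowest in Aro0.5 males (136 ± 7.13 CPM, n = 4). The other 9 groups had means of 144 to 168 CPM. Neighbours in this order differed by less than the larger of their SDs. Dagla was highest in Aro5 females (146 ± 24.2 CPM; SD, n = 5) and lowest in BPA0.5 males (81.6 ± 23.4, n = 4). The 5 female groups held its 5 highest means, from 124 CPM upwards, and the 8 male groups had means from 81.6 to 110 CPM. Mgll and Abhd12 had their highest means in Aro0.5 males (134 ± 31.3 and 109 ± 10.0 CPM, n = 4) and their lowest in CPF3 males (98.5 ± 20.0 and 93.3 ± 8.90 CPM, n = 7).

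In males of the high chlorpyrifos dose, no gene of the list passed the adjusted threshold. Of 16393 genes tested against the 9 control males, edgeR's quasi-likelihood test called 26 at an adjusted p under 0.05 (0.159%), and 0 of the 8 endocannabinoid genes were among them. At an unadjusted p under 0.05 it had 2 of the 8, Cnr1 and Mgll, beside 12.6% of all genes, and DESeq2 also called 0 of the 8. The values of 4 genes (Dagla, Daglb, Cnr1 and Pnpla6) were above control and those of the other 4 below, with a median log2 fold change of 0.0017 against 0.0029 for all genes tested. 

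Among the enzymes of 2-AG synthesis, Dagla had 71.3, 104 and 117 CPM (lowest, median and highest of 7) in CPF3 males and 79.4, 91.4 and 110 CPM in the 9 controls. The ranges overlapped, with 2 treated pups above and 1 below all controls. The log2 fold change was 0.15 (SE 0.12, edgeR adjusted p = 0.613), or 111% of control with a 95% interval of 93.4 to 131%. Daglb had 20.4, 23.0 and 29.7 CPM against 19.4, 23.9 and 27.2 CPM, and its fitted level was 101% of control (89.1 to 114%).

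For 2-AG hydrolysis, Mgll had 76.9, 89.0 and 124 CPM in CPF3 males against 91.8, 114 and 134 CPM in controls. The treated pups fell apart: 4 of 7 lay below every control, between 76.9 and 89.0 CPM, and the other 3 lay within the control range, at 110 CPM and above. The log2 fold change was -0.20 (SE 0.098, edgeR unadjusted p = 0.0469, adjusted p = 0.391), 86.9% of control (75.7 to 99.8%). An exact permutation test over the pups gave p = 0.0684 for Mgll (2-sided, not adjusted). Abhd12 had 81.4, 98.7 and 102 CPM against 92.1, 102 and 111 CPM, with 3 treated pups below every control and none of 7 above the control median. Its fitted log2 difference was -0.12 (SE 0.062, edgeR unadjusted p = 0.0647, adjusted p = 0.425), 92.1% of control (84.4 to 100.5%), and the permutation test gave p = 0.0458 before adjustment. Abhd6, the serine hydrolase of the postsynaptic side, varied least between pups, with 37.9, 41.1 and 42.8 CPM against 37.4, 40.9 and 44.5 CPM. Its fitted level was 98.5% of control (91.8 to 106%).

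Napepld, the phosphodiesterase that releases N-acylethanolamines, had 5.44, 6.94 and 7.63 CPM in CPF3 males and 4.68, 6.93 and 9.73 CPM in controls. Its level was 99.5% of control (80.6 to 123%), at the lowest counts of the list. Pnpla6, the neuropathy target esterase, had 48.3, 58.3 and 79.5 CPM against 52.7, 62.2 and 63.5 CPM. Its fitted level was 101% of control (86.7 to 117%). The SD was 10.2 CPM in CPF3 males and 3.87 CPM in controls, and 2 treated pups lay above and 2 below every control.

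Cnr1, the CB1 receptor, had 162, 196 and 248 CPM in CPF3 males against 108, 159 and 223 CPM in controls. All 7 treated pups were above the control median of 159 CPM, 2 of them above every control, and the ranges overlapped between 162 and 223 CPM. The log2 fold change of 0.36 (SE 0.14) was the largest of the list in size (128% of control, 106 to 156%). Its unadjusted p was 0.0124 and its adjusted p 0.309 by edgeR's quasi-likelihood test, and an exact permutation test over the pups gave p = 0.0182 for the log2 CPM (2-sided, not adjusted). Leaving out each pup in turn moved the log2 fold change between 0.31 and 0.44. With only the 5 CONSC males as controls, which share the route of injection, it was 0.38 (edgeR adjusted p = 0.675), and with dissection time as a covariate 0.39 (adjusted p = 0.214).

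The other high-dose male groups, which share these controls and the title form, had Cnr1 values on the same side. In Aro5 males the gene had 131, 199 and 264 CPM, with a fitted log2 difference of 0.34 (SE 0.14, edgeR unadjusted p = 0.0242, adjusted p = 0.335). Within the stated hours of dissection, with 4 of the 6 pups and 6 of the 9 controls, it was 0.59 and passed the threshold (edgeR adjusted p = 0.0368). The window left out Aro5 pups at 131 and 168 CPM and controls at 148, 159 and 223 CPM. Of the Aro5 pups inside it, 120-1y (264 CPM, the highest of all 64 pups) and 120-2y were litter mates. In BPA5 males Cnr1 had 145, 177 and 239 CPM, with a log2 difference of 0.23 (SE 0.14, edgeR adjusted p = 0.594). Of the 16393 genes, 0.195% were called in Aro5 and 0.189% in BPA5 males, and of the 8 genes 0 by edgeR and 0 by DESeq2, with 1 and 0 at an unadjusted p under 0.05, beside 1929 and 1492 of all genes. Against the mean of Aro5 and BPA5 males, CPF3 males differed in Cnr1 by a log2 value of 0.08 (SE 0.13, 105% with an interval of 88.2 to 126%). The other 7 genes differed by -0.11 to 0.02, the lowest value being that of Mgll (SE 0.091, edgeR unadjusted p = 0.244). This comparison within title form B called 0 of the 8 genes and 0% of all genes, with 494 of 16393 genes at an unadjusted p under 0.05. It sets pups of injected dams against pups of fed dams, so that route differs along with the chemical.

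**Figure D2:**
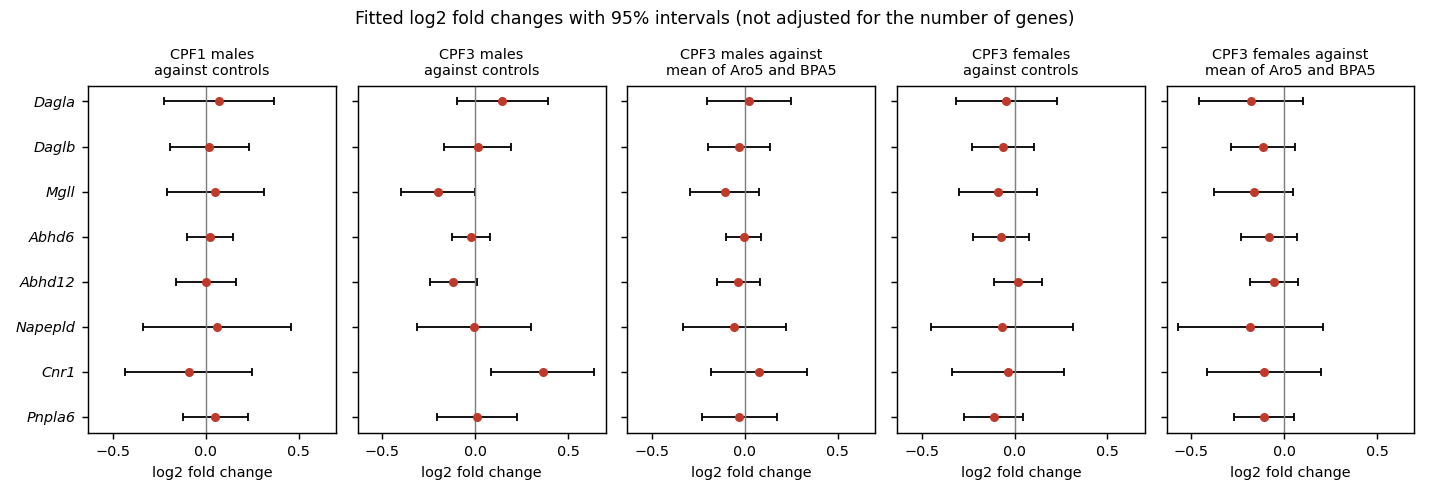
Fitted log2 fold changes of the 8 genes (points) with 95% intervals (bars) for 5 chlorpyrifos comparisons; the vertical line marks 0. In CPF3 males the interval of Cnr1 lies above 0 and that of Mgll just below it before adjustment for the number of genes, and against the other high-dose males both include 0.

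Some markers of regions and cell types differed between CPF3 and control males at an unadjusted p under 0.05, beside 12.6% of all genes. Title form differed along with the group. Of 6 neocortical markers, 4 had an unadjusted p under 0.05 and 3 of these were higher, with summed CPM of 386 to 845 in CPF3 males and 278 to 627 in controls. Of 6 striatal markers, 4 were lower at this level, with medians of 164 and 428 summed CPM. The 8 interneuron markers had medians of 335 and 449 summed CPM, and 3 passed the unadjusted level (1 higher, 2 lower). Lower at that level were also 2 of 5 astrocyte markers (medians of 1184 and 1316 summed CPM) and 2 of 5 microglia markers (58.3 and 74.9). In the other lists 1 of 6 hippocampal neuron, 1 of 7 thalamic and 1 of 5 oligodendrocyte markers had such a p. Of the markers of all neurons it was 0 of 5, of endothelium 0 of 4 and of choroid plexus 0 of 4 tested. In Aro5 males 4 of 6 neocortical markers had an unadjusted p under 0.05, all higher (477 to 808 summed CPM, median log2 fold change 0.64), and in BPA5 males 3 of 6, of which 2 were higher (314 to 795 summed CPM). The striatal markers had a median log2 fold change of -0.69 in BPA5 males, with 1 of 6 at that level. The adjusted threshold was passed by 0 of these markers, and their part in the Cnr1 and Mgll values was not tested.

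At the lower dose of chlorpyrifos, the fitted values of the 8 genes were within 0.1 of control on the log2 scale. In CPF1 males, 0 of 16139 genes (0%) and 0 of the 8 were called by edgeR and by DESeq2. At an unadjusted p under 0.05 edgeR had 0 of the 8, beside 2% of all genes. These 4 libraries are of form A, as are 9 male control libraries. The remaining male control library, of form B, was summed with the form A library of the same pup, N2-2y. Cnr1 had 129, 130, 146 and 185 CPM, a log2 fold change of -0.09 (SE 0.16, 93.9% of control, 74.1 to 119%), and only 1 of 4 pups, 16-7y, was above the control median. Without this pup the log2 fold change was -0.23, and leaving out the other pups in turn moved it between -0.14 and -0.03. Dagla had 92.2, 95.4, 101 and 103 CPM, all 4 above the control median and all within the control range (log2 fold change 0.07, SE 0.14). Daglb (22.3 to 25.5 CPM), Mgll (108 to 124 CPM), Abhd6 (39.5 to 45.5 CPM), Abhd12 (95.4 to 105 CPM), Napepld (5.24 to 7.86 CPM) and Pnpla6 (54.1 to 66.5 CPM) had fitted levels of 100.2 to 104.3% of control. The 95% intervals of all 8 genes lay between 74.1 and 138% of control, the narrowest being that of Abhd6 (93.2 to 111%) and the widest that of Napepld (79.1 to 138%). Against the mean of Aro0.5 and BPA0.5 males, 0.0806% of the genes and 0 of the 8 were called, by edgeR and by DESeq2 alike for the 8, with 0 of them at an unadjusted p under 0.05. The smallest p of the 8 was that of Abhd12 (log2 difference -0.09, SE 0.079, edgeR unadjusted p = 0.251). Route differed along with the chemical in this comparison too.

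In females of the high chlorpyrifos dose, 7 of the 8 values were below control and none passed the threshold. Of 16992 genes, edgeR called 0 (0%), and 0 of the 8 were called by edgeR or DESeq2 against 10 control females. At an unadjusted p under 0.05 edgeR had 0 of the 8 and 8.79% of all genes. Log2 fold changes ran from -0.11 (Pnpla6, SE 0.078, edgeR unadjusted p = 0.158) to 0.02 (Abhd12). Pnpla6 had 58.0, 58.5, 69.5 and 74.1 CPM against 65.3, 71.3 and 82.5 CPM (lowest, median, highest of 10), so that 2 of 4 pups were below every control. Mgll had 94.6, 97.6, 105 and 126 CPM against 101, 113 and 137 CPM, likewise with 2 pups below every control (94.0% of control, 81.4 to 108%). Napepld had 4.01, 4.46, 7.02 and 8.03 CPM against 5.05, 5.61 and 8.27 CPM, again with 2 pups below every control (95.4% of control, 73.3 to 124%). Abhd6 had 34.2, 34.9, 35.1 and 37.7 CPM, within the control range of 32.4 to 47.5 CPM.

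Cnr1 had 82.7, 144, 179 and 183 CPM in the CPF3 females against 103, 153 and 182 CPM in the controls. The lowest value, in pup 43-3x, was the lowest of all 64 pups, and this pup was dissected before the time window that the methods give. The log2 fold change was -0.04 (SE 0.15), and without this pup 0.16. Dagla (99.9 to 151 CPM) and Daglb (18.4 to 25.3 CPM) were also lowest in this pup, and without it their log2 fold changes went from -0.05 to 0.04 and from -0.06 to 0.01. That of Napepld went from -0.07 to 0.04 without this pup. The female pup 45-6x had the most deeply sequenced library of the series and lay within the control range for all 8 genes.

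Against the mean of Aro5 and BPA5 females, all 8 genes had lower values in CPF3 females, with log2 differences of -0.18 (Napepld) to -0.06 (Abhd12) and a median of -0.11, beside -0.0094 for all genes. Mgll had the smallest p (log2 difference -0.16, SE 0.10, edgeR unadjusted p = 0.122, adjusted p = 0.589). Here as well, route differed along with the chemical. No gene was called (0% of 16992; 1806 at an unadjusted p under 0.05), and of the 8 genes 0 by DESeq2 and 0 at an unadjusted p under 0.05.

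Whether the response to CPF3 differed between the sexes was tested as an interaction over both sexes. It called 0.0463% of 17282 genes and 0 of the 8, with 0 of the 8 at an unadjusted p under 0.05 and 0 by DESeq2. Cnr1 was nearest to the threshold, with a log2 difference of -0.41 between the responses of females and males (SE 0.21, edgeR unadjusted p = 0.0587, adjusted p = 0.872), which was -0.22 without CPF3 female 43-3x. The title form of the treated females is unknown, and that of the treated males differs from that of 9 of 10 male control libraries, so that the interaction carries the same confounding.

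The mRNA of 1 gene of 2-AG hydrolysis was set against that of 1 gene of synthesis by the ratio of Mgll to Dagla counts within each pup. Such a ratio needs no scaling between libraries. It leaves out Daglb, Abhd6 and Abhd12 and does not measure hydrolysis or synthesis. In control males the log2 ratio was 0.29 ± 0.14 (SD, n = 9; 0.0052 to 0.49), and in CPF1 males 0.27 ± 0.13 (n = 4). In CPF3 males it was -0.07 ± 0.28 (n = 7; -0.39 to 0.23). The difference of -0.36 had an exact permutation p of 0.00629 (2-sided), which was 0.0566 after adjustment over the 9 planned tests and 0.0378 over the 6 that could be computed without Faah. The call thus depended on whether the ratio with Faah was counted as a test. All 9 tests were chosen with earlier results of these data known. Leaving out each pup in turn moved the difference between -0.40 and -0.30, and without CPF3 male 38-1y or without CONSC male 10-2y the p adjusted over 9 tests was 0.0324 or 0.0112 by the same permutation test. Within the stated hours of dissection, with 7 CPF3 males and 6 controls, the difference was -0.40 (adjusted permutation p = 0.021). The window left out 3 of the 5 CONSC males and 0 of the 4 CONF males. Pup 10-2y, with the lowest control ratio (0.0052), was among those left out, so that this value is not separate from the one without 10-2y. With CONSC males alone as controls the difference was -0.32 (adjusted permutation p = 0.386). Mean log2 ratios in the other high-dose males were 0.15 ± 0.34 (Aro5, n = 6) and 0.04 ± 0.20 (BPA5, n = 7), and in the low-dose males 0.30 ± 0.10 (Aro0.5, n = 4) and 0.56 ± 0.21 (BPA0.5, n = 4). In control females it was -0.17 ± 0.23 (n = 10) and in CPF3 females -0.22 ± 0.14 (n = 4), a difference of -0.05 (exact permutation p = 0.717).

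The same ratio also differed with title form among libraries of controls. In male pup CONF N2-2y the log2 ratio was 0.62 in the form A library and 0.05 in the form B library, a gap wider than the difference between CPF3 and control males. The form A value was the highest of the 9 male control libraries of that form (0.0052 to 0.62). The form B value, from the only male control library of form B, lay within that range. In female pup CONF N4-3x it was -0.21 and -0.39. The 5 control female libraries of form A (2 CONF, 3 CONSC) had -0.01 ± 0.20 (SD) and the 6 of form B (4 CONF, 2 CONSC) -0.33 ± 0.12. Route differed along with form there, the ratio being -0.28 ± 0.14 in CONF and -0.06 ± 0.27 in CONSC females (n = 5 each). Treatment and title form therefore cannot be told apart as the source of the lower ratio in CPF3 males. The ratio of Dagla to Daglb, the pair of lipases that make 2-AG, had a log2 value of 1.98 ± 0.15 in control males, 2.03 ± 0.045 in CPF1 males and 2.11 ± 0.21 in CPF3 males. Its differences from control were 0.05 (CPF1, exact permutation p = 0.545), 0.13 (CPF3 males, p = 0.182 by the same permutation test) and 0.03 (CPF3 females, permutation p = 0.903).

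Outside the chlorpyrifos groups, Aro0.5 males stood apart most. Of the 8 genes 4 had an unadjusted p under 0.05 by edgeR, all higher, beside 18.5% of all genes. At the adjusted threshold 0.124% of all genes and 0 of the 8 were called, by edgeR and for the 8 by DESeq2. Napepld had the smallest p, with 7.18, 7.93, 10.2 and 11.7 CPM in Aro0.5 and 4.68, 6.93 and 9.73 CPM in controls (lowest, median, highest of 9). Its log2 fold change was 0.52 (SE 0.18, edgeR unadjusted p = 0.00858, adjusted p = 0.164). Pup 98-8y was the highest of the group in Napepld, in Mgll (179 CPM, the other 3 at 108 to 132 CPM) and in Dagla (153 CPM, the other 3 at 90.5 to 98.9 CPM). In the same comparison 5 of 7 thalamic markers had an unadjusted p under 0.05 and were higher (639 to 1043 summed CPM, controls 403 to 1078), and 5 of 6 striatal markers were lower (107 to 360, controls 122 to 713). At that level 5 of 8 interneuron markers also differed (4 lower, median log2 fold change -0.41), as did 3 of 6 neocortical markers (all lower, median -0.56) and 2 of 4 tested choroid plexus markers (both lower, median -0.44). Their part in the values of the 4 genes was not tested.

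In BPA0.5 males 0.0434% of the genes and 0 of the 8 were called, with 0 of the 8 at an unadjusted p under 0.05 and 0 by DESeq2. Pnpla6 had the smallest p there (log2 fold change -0.15, SE 0.084, edgeR unadjusted p = 0.0797, adjusted p = 0.617). In Aro5 and BPA5 females 0% of the genes and 0 of the 8 were called, by edgeR and for the 8 by DESeq2, with 0 of the 8 below 0.05 before adjustment. The smallest p of the 8 were those of Abhd12 in Aro5 females (log2 fold change 0.10, SE 0.057, edgeR unadjusted p = 0.104) and of Cnr1 in BPA5 females (0.15, SE 0.14, edgeR unadjusted p = 0.316). Injection and feeding controls differed in 0.013% of 15387 genes in males and in 0% of 16618 genes in females, and in 0 of the 8 by edgeR and by DESeq2. In males Daglb was 25.3 ± 1.65 CPM in CONSC (SD, n = 5) and 21.6 ± 2.53 CPM in CONF (n = 4), a log2 difference of 0.22 (SE 0.091, edgeR unadjusted p = 0.03, adjusted p = 1), the only gene of the 8 with an unadjusted p under 0.05 there, beside 152 of all genes. In females 0 of the 8 had one, and the smallest was that of Napepld (log2 difference -0.23, SE 0.16, edgeR unadjusted p = 0.172).

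Control females and control males differed in Dagla and Pnpla6. Of 17282 genes, 27.1% were called (4681, of which 2530 were higher in females), and 2 of the 8 endocannabinoid genes, a share near that of all genes. Dagla had 88.6, 132 and 154 CPM in females (lowest, median, highest of 10) against 79.4, 91.4 and 110 CPM in males (of 9), and 131 ± 20.6 against 93.6 ± 10.4 CPM on average. The log2 difference was 0.51 (SE 0.11, edgeR adjusted p = 0.000491), 143% of the male level (122 to 167%), and the ranges overlapped between 88.6 and 110 CPM. Pnpla6 had 65.3, 71.3 and 82.5 CPM in females and 52.7, 62.2 and 63.5 CPM in males. These ranges of pups did not overlap, and the share of all genes without overlap is not given here. Single libraries did overlap, with 65.1 CPM in form B of male N2-2y and 64.9 CPM in form B of female N4-3x. The log2 difference of Pnpla6 was 0.28 (SE 0.086, edgeR adjusted p = 0.0115), 121% (108 to 137%). The other 6 genes did not pass the threshold. Abhd6 was at 93.3% of the male level in females (87.3 to 99.7%, edgeR unadjusted p = 0.0404, adjusted p = 0.114), and Cnr1 at 98.5% (82.9 to 117%).

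Title form bore on this comparison as well. With libraries of form A only, from 5 females and 9 males, 11.7% of 15849 genes were called and 1 of the 8. Form A was read from different traits of the title in each sex, so that the sexes may not be matched by it. Pnpla6 kept its difference (log2 0.31, SE 0.088, edgeR adjusted p = 0.027), while that of Dagla was 0.36 (SE 0.12, edgeR adjusted p = 0.0695). Among the control females, libraries of form B exceeded those of form A in Dagla by a log2 value of 0.35 (SE 0.094, edgeR unadjusted p = 0.00216, adjusted p = 0.0747), in a comparison that called 1.43% of 16577 genes and 0 of the 8. They had 144 ± 8.49 CPM (n = 6) against 116 ± 18.4 CPM (n = 5). Pup N4-3x has a library in each form, which the fit treats as independent, and 4 of 6 form B but 2 of 5 form A libraries were CONF, so that the p-values are approximate and form is not separated from route. Pnpla6 differed there by -0.01 (SE 0.069) and Cnr1 by 0.21 (SE 0.12, edgeR unadjusted p = 0.109).

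The pair of libraries of male pup N2-2y shows what 1 brain gave in both forms. Dagla had 58.7 CPM in the form A library, below the 8 other male control libraries of that form, and 102 CPM in form B. Pnpla6 had 44.0 and 65.1 CPM, Mgll 90.0 and 106 CPM, and Daglb 17.97 and 21.02 CPM. Cnr1 went the other way, with 208 CPM in form A and 170 CPM in form B. Abhd6 (39.2 and 38.9 CPM) and Napepld (4.80 and 4.56 CPM) differed little. For Dagla and Pnpla6 this gap within 1 pup was wider than the difference between the sexes. In female pup N4-3x the libraries were closer, with Dagla at 131 and 143 CPM, Pnpla6 at 67.3 and 64.9 CPM and Cnr1 at 161 and 169 CPM. Across male libraries, Cnr1 had a median of 159 CPM in 9 form A controls (108 to 223), 141 CPM in 12 low-dose libraries of form A (92.3 to 191) and 194 CPM in 20 high-dose libraries of form B (131 to 264).

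**Figure D3:**
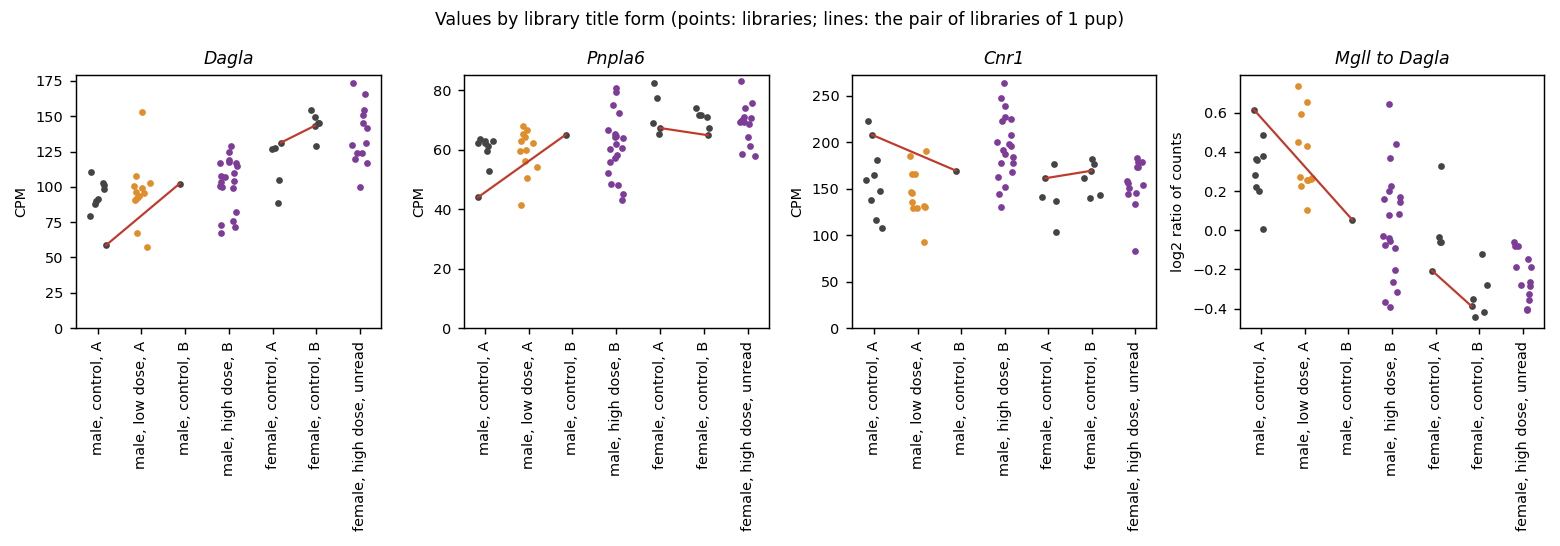
CPM of Dagla, Pnpla6 and Cnr1 (axes from 0) and the log2 ratio of Mgll to Dagla counts in single libraries, by sex, dose class and title form (A, B or unread); red lines join the pair of libraries of 1 pup. High-dose male libraries are all of form B, and the form A and form B libraries of male N2-2y differ in Dagla (58.7 and 102 CPM) and in the ratio (0.62 and 0.05).

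Differences between pups of the same group followed a shared pattern. Log2 CPM were taken after subtraction of the group means, over 64 pups, and 28 pairs of the 8 genes were compared. Daglb and Pnpla6 were the most alike (Pearson's r = 0.847, Spearman's rho = 0.817), followed by Dagla and Pnpla6 (r = 0.76, rho = 0.728) and by Mgll and Abhd12 (r = 0.749, rho = 0.724). All 3 had a permutation p of 1e-05, the smallest that 100000 permutations within groups can give, and an adjusted p of 7e-05. Without the 2 pups farthest from the median r was 0.808, 0.745 and 0.73. Abhd12 and Cnr1 were opposed (r = -0.58, rho = -0.604, adjusted permutation p = 9.33e-05, r = -0.556 without the 2 farthest pups). For this pair r was -0.733 in 41 males and -0.221 in 23 females, and in males -0.673 within form A (20 pups) and -0.796 within form B (20 pups). Daglb and Pnpla6 had r = 0.844 and 0.934 within these forms. Abhd6 followed no other gene of the list, with r from -0.181 to 0.155.

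These pairs share their libraries and their tissue pieces. The first principal component of 13433 genes, which held 24.3% of the variance between pups of a group, correlated with Abhd12 and Pnpla6 (both r = 0.704), Daglb (r = 0.672), Dagla (r = 0.519) and Mgll (r = 0.424), and inversely with Cnr1 (r = -0.758). Napepld (r = -0.16) and Abhd6 (r = -0.0508) hardly took part. By the same measure the genes most like Cnr1 were Reps2 (r = 0.915), Adam10 (r = 0.911) and Hecw1 (r = 0.901). Those most like Dagla were Sbf1 (r = 0.901), Ppp2r2c and Tecpr1 (both r = 0.896), and those most like Pnpla6 were Caskin1 (r = 0.928), Hcn3 (r = 0.923) and Aacs (r = 0.911). Abhd12 was nearest to Auh (r = 0.857), Daglb to Slc39a3 (r = 0.853), and Napepld to Akap2 and Ypel2 (both r = 0.793). Abhd6 had no close match, the highest being Drp2 (r = 0.624). These are descriptions over 64 pups, without a test.

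**Figure D4:**
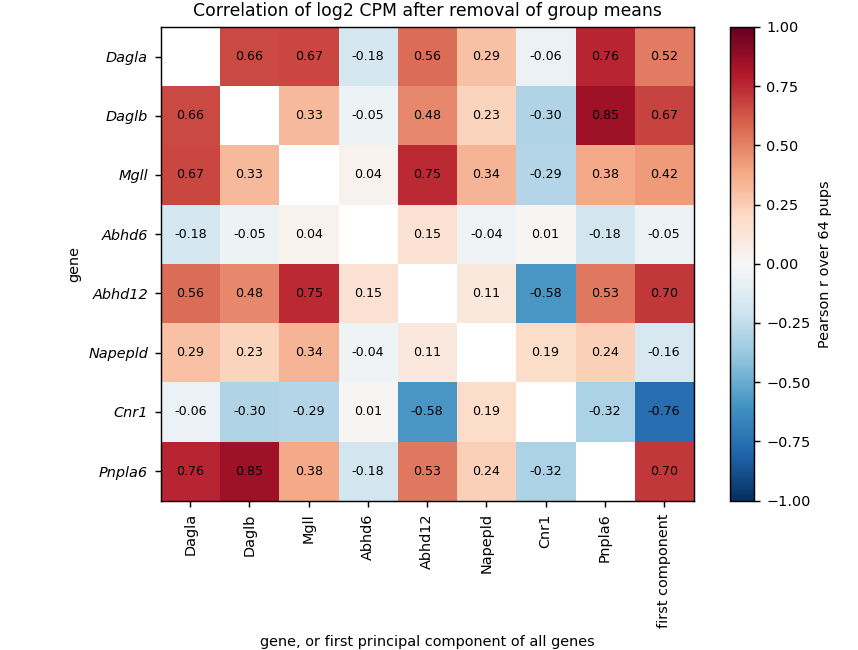
Pearson's r between the 8 genes, and between each gene and the first principal component of all genes (last column), over 64 pups after removal of group means; red is positive and blue negative. Daglb and Pnpla6 (0.85) are the closest pair and Abhd12 and Cnr1 (-0.58) the most opposed.

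The neighbourhood of the pathway was read from lists of other genes. Of 23 tested endocannabinoid genes beyond the 9, 17 signalling partners of CB1 and 30 other serine hydrolases and esterases, 0 passed the adjusted threshold of edgeR's test in CPF3 males. At an unadjusted p under 0.05 there were 3 (all lower), 2 (both higher) and 5 (all lower), shares near the 12.6% of all genes at that level. The medians of the log2 fold changes were -0.04, 0.08 and -0.01. In CPF1 males the counts were 0 at both thresholds (22, 17 and 30 genes tested). In CPF3 females they were 0 at the adjusted threshold and 0, 0 and 1 at the unadjusted, beside 8.79% of all genes at the latter. In the other treatment comparisons edgeR called 0 genes of these lists, but counts at the unadjusted level varied. In Aro0.5 males they were 8 of 22, 5 of 17 and 4 of 30 (6, 1 and 3 of them higher), beside 18.5% of all genes. In BPA0.5 males they were 1, 1 and 8, beside 1384 of 16139 genes, and in BPA5 males 0, 2 and 3. In CPF3 females against the mean of Aro5 and BPA5 females they were 5, 0 and 3, beside 1806 of 16992 genes.

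Between control females and males, by contrast, 6 of the 17 partners of CB1 and 13 of the 30 hydrolases were called, beside 27.1% of all genes. Of the 23 genes of the endocannabinoid list 2 were called, and both are depalmitoylases of proteins rather than endocannabinoid enzymes. Abhd17a was higher in females (log2 difference 0.46, edgeR adjusted p = 0.000642), and its relative Abhd17b was lower (-0.31, edgeR adjusted p = 0.000812). Among the partners, Cacna1a, the pore of P/Q-type calcium channels that CB1 restrains, was higher (0.45, edgeR adjusted p = 0.00033), as were Plcb3 (0.40), Camk2a (0.47) and the muscarinic receptor Chrm1 (0.58), while the G protein subunit Gnai3 was lower (-0.21). Of the hydrolases, Lypla2 (0.87, edgeR adjusted p = 6.1e-06), Abhd16a (0.47) and the hormone-sensitive lipase Lipe (0.66) were higher, and Pafah1b2 (-0.20) and Siae (-0.31) lower. Some neuronal and regional markers were called in the same comparison: 2 of 5 of all neurons, 4 of 8 of interneurons and 2 of 6 of neocortex. All of these were higher in females, among them Rbfox3 (0.67), Dlx2 (1.22) and Tbr1 (0.96) of the respective lists. The median log2 differences of the whole lists were -0.08, 0.21 and 0.36, so that the list of all neurons was not higher as a set. Markers of other lists were called too. Wfs1 (hippocampal neuron, 0.80), Lhx2 (thalamus, 0.46), Olig1 (oligodendrocyte lineage, 0.48) and Cldn5 (endothelium, 0.51) were higher in females. Pdgfra of the oligodendrocyte lineage was lower (-0.22). The part of these markers in the differences of Dagla and Pnpla6 was not tested.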

How the data were processed

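RNA of the dorsal hippocampus was sequenced from polyadenylated RNA with a stranded kit. The authors deposited raw counts per gene for each of 66 libraries. Their processing notes name the build Rnor_6.0, STAR, featureCounts and kallisto, and versions, strand setting and treatment of reads with several matches are not given in the sources used here, so that genes with near-identical copies are uncertain. Other labels and the methods differ in the sequencer and the vehicle.

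From these counts, CPM were computed per pup, and the counts of both libraries of a pup were summed. Fits used edgeR 4.0.16 in R 4.3.3 (TMM, filterByExpr by group, quasi-likelihood F test, Benjamini-Hochberg adjustment over all genes tested, adjusted p under 0.05). A fit was made for each dose level of males with its controls, for females, for the controls of each sex, and for both sexes. The SE is the log2 fold change divided by the square root of F, and 95% intervals use the t quantile and are not adjusted. Alternatives were run with DESeq2 1.42.0 and with limma 3.58.1 (litter as a block), and the edgeR script was tested on simulated data. Ratios were tested by exact permutation over pups, and correlations by 100000 permutations within groups, with scipy 1.17.1 and numpy 2.4.6 (Python 3.11.15), tables being handled in pandas 2.3.3 and plots in matplotlib 3.10.9.

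The 9 genes, the lists and the tests were chosen with earlier results of these data known. Named are all 9 in chlorpyrifos comparisons, elsewhere those called or else the one with the smallest p, up to 5 called genes per list, and the 3 most alike in pattern with a mean count of at least 50 (those of Mgll are not reported here). The regional markers and the pups named were chosen after their values were seen. Each pup is a separate animal, some being litter mates. Transcript lengths and protein sequences were not used here.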

Additional observations from a re-analysis of the deposited data

Results flagged for a closer look

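In 104 groups of 4 to 7 pups (8 genes in 13 groups), 3 pups stood far from the rest of their group by Dixon's 95% limit, which chance exceeds in about 1 of 20 groups. Dagla was 153 CPM in Aro0.5 male 98-8y, with the other 3 pups at 90.5 to 98.9 CPM. Dagla was 71.3 CPM in CPF3 male 38-1y, the lowest of 7. Napepld was 7.53 CPM in CONSC female 8-2x, the highest of 5.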

How the results depend on the processing

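The number of the 8 genes called was 0 in every treatment comparison under the alternatives run (DESeq2, its size factors, no filter on low counts, time window, time as covariate, 1 pup per litter, same-route controls alone, a fit of the compared groups alone, each pup left out), with 1 exception. With pups inside the time window only, 1 gene was called in Aro5 males, Cnr1 (log2 fold change 0.59, edgeR adjusted p = 0.0368). The Aro5 males inside the window included the litter mates 120-1y and 120-2y. Between control females and males 2 were called, 2 to 3 with a pup left out (3 without CONSC female 9-1x), and 1 with libraries of form A, where Dagla had 0.36 (edgeR adjusted p = 0.0695). With litter as a replicate block (limma), which pairs males and females of 1 litter, the calls were 2 (Dagla 0.50, Pnpla6 0.28) and 0 in the interaction. No other comparison pairs pups. The comparison of title forms among control females was added after seeing the data.

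The log2 ratio of Mgll to Dagla differed from controls in CPF3 males by -0.4009 inside the time window and by -0.4049 to -0.3022 with a pup left out. In CPF1 males it changed sign with controls of the same route (0.01706) and ranged from -0.07331 to 0.03563 with a pup left out, and in CPF3 females it ranged from -0.101 to 0.008341. The ratio of Dagla to Daglb in CPF3 females changed sign as a linear ratio (-0.007799) and ranged from -0.04508 to 0.06784 with a pup left out. The ratio of Faah to Napepld was not computed because Faah is at 0.

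Fold changes near 0 changed sign in 23 of 324 recomputed values and in 34 of 562 with a pup left out, none of them past the adjusted threshold. With controls of the same route, log2 values were -0.08121 (Daglb) and -0.02433 (Pnpla6) in CPF3 males, -0.0009126 (Dagla) and -0.07427 (Daglb) in CPF1 males, and 0.02477 (Dagla), -0.007466 (Abhd12), 0.05437 (Napepld) and 0.04585 (Cnr1) in CPF3 females. Mean differences of log2 CPM were -0.002234 (Daglb), 0.001281 (Napepld) and -0.01599 (Pnpla6) in CPF3 males, -0.004796 (Abhd12) in CPF1 males and -0.006342 (Abhd12) in CPF3 females. Inside the time window values were -0.02652 (Abhd12) and -0.006897 (Napepld) in CPF1 males, and 0.04097 (Dagla), 0.01474 (Daglb), 0.04515 (Napepld) and 0.1553 (Cnr1) in CPF3 females. Abhd12 in CPF1 males was -0.005344 with DESeq2, -0.005915 with its size factors, -0.005813 with time as covariate and -0.007447 in a fit of the compared groups alone.

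With a pup left out, log2 fold changes in CPF3 males ranged from -0.05308 to 0.04607 (Daglb), -0.06982 to 0.07362 (Napepld) and -0.07278 to 0.05711 (Pnpla6). In CPF1 males they ranged from -0.02233 to 0.05301 (Daglb), -0.02113 to 0.04128 (Abhd6), -0.0208 to 0.02291 (Abhd12), -0.006713 to 0.1635 (Napepld) and -0.2318 to -0.02605 (Cnr1). In CPF3 females they ranged from -0.1714 to 0.04051 (Dagla), -0.1259 to 0.01427 (Daglb), -0.02368 to 0.05511 (Abhd12), -0.3052 to 0.08069 (Napepld) and -0.1388 to 0.1557 (Cnr1). The cause of these changes was not tested. Counts of 60 to 692 limit the precision of Napepld most.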
